A study of Mus musculus with 6 samples.

Results

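Genes that make and break down prostaglandins were followed in primary mouse vascular smooth muscle cells after depletion of Sirt7, a NAD-dependent deacylase of the nucleus. The set was a fixed list of 9 genes, Pla2g4a, Ptgs1, Ptgs2, Ptges, Ptges2, Ptges3, Ptgis, Ptgr1 and Hpgd, taken by gene name from the deposited table. All 9 were present, with 11 annotated transcripts, among 11808 genes. The cells came from male C57BL/6 mice aged 6 weeks, were released with collagenase and grown in normal growth medium with serum. Each culture received 20 nM of siRNA with a lipid reagent and was profiled at 48 h. The control group, labelled wild type, received a scrambled siRNA (siScrambled, 3 libraries), and the other group, labelled Sirt7 knockdown, received siRNA against Sirt7 (siSirt7, 3 libraries). The knockdown was thus transient, and no library without any siRNA is among the 6. Separate cell preparations per library are not stated, nor whether cells of several mice were pooled, so p-values measure only how far these libraries differ from each other, a spread that may be technical.

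Prostaglandins are made on demand and are not stored. A phospholipase frees arachidonic acid from membranes, a cyclooxygenase turns it into prostaglandin H, and a terminal synthase turns that into its own product, such as prostaglandin E or prostacyclin. In the arterial wall prostacyclin relaxes smooth muscle and restrains platelets. Released prostaglandins act on receptors at the cell surface, are taken back up by a transporter, and are inactivated first by a dehydrogenase and then by a reductase.

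Values are FPKM (fragments scaled to transcript length and library depth), summed over the listed transcripts of a gene, a level that can be compared between genes. Library totals ran from 321944 to 333683 FPKM. The table holds no read counts, so the depth behind each value is unknown. Sirt7 was at 4.35, 3.55 and 4.48 FPKM in the siScrambled libraries and at 0.959, 1.25 and 0.360 FPKM in the siSirt7 libraries, with no overlap (limma adjusted p = 0.00388, and 0.0697 with single transcripts). All 7 smooth muscle markers were measured, with smooth muscle actin (Acta2) at 1363 ± 5.55 and 1333 ± 74.2 FPKM (± SD, n = 3 each), and 3 of them, Cnn1, Smtn and Tagln, were called lower with siSirt7. Their summed level was 2777 to 2816 FPKM in siScrambled and 2437 to 2645 FPKM in siSirt7 libraries. Over all tested genes 12.7% were called higher and 12.5% lower, the shares beside which the marker counts here stand. None of 7 endothelial markers and none of 6 mast cell and lymphocyte markers was in the table. Of 8 macrophage markers 5 were listed, 2 were tested (Cd68, Lyz2) and neither was called, with a summed level of 19.3 to 22.8 and 21.5 to 24.3 FPKM that was mostly Lyz2, while the defining Adgre1, Ptprc and Mrc1 were absent. Of 5 platelet markers Itga2b alone was listed, at most at 0.655 FPKM. All 7 mesothelial markers were listed, with a summed level of 101.7 to 113.4 FPKM in siScrambled and 92.7 to 101.9 FPKM in siSirt7 libraries and 1 of 5 tested called lower (Upk3b). All 7 markers of adventitial fibroblasts were listed, with 569.9 to 626.6 and 601.7 to 662.2 FPKM, and of 6 tested 1 was called higher (Lum) and 2 lower (Dpt, Pdgfra). Of 6 adipocyte markers 2 were listed, with 33.3 to 34.5 and 32.2 to 36.7 FPKM, and 1 was called higher (Pparg). The part of the smooth muscle markers and of these other cells in the levels below was not tested, and in bulk RNA fewer cells of a type and less RNA per cell cannot be told apart.

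The start regions of Ptgs2, Ptgs1, Ptges3 and Ptgr1, 4 of the 5 members that changed, and of both listed Pla2g4a transcripts are shown because the changes below are changes of messenger RNA. Each is a RefSeq promoter of GRCm38.p6 that runs from 250 bases before to 50 bases after the RefSeq start, on the gene's own strand, 5′ to 3′. For Ptges3 and Ptgr1 that start differs from the start of the gene model whose positions are given further below. RefSeq promoters were matched for 8 of the 9 members, all but Ptgis. Capitals mark matches, on either strand, to 6 motifs: the TATA box TATAAA, the short cAMP response element TGACGT, the C/EBP consensus TTNNGNAA, the E-box CACGTG, the GC box GGGCGG and the antioxidant response element core TGACNNNGC.
Ptgs2 (chr1:150099781-150100080, plus strand): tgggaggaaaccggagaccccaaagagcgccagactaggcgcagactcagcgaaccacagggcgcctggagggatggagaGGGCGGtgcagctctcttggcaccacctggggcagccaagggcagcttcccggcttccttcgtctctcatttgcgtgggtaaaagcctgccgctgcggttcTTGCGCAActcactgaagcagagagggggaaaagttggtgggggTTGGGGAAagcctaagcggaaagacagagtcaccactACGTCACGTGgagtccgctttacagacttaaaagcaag
Ptgs1 (chr2:36230176-36230475, plus strand): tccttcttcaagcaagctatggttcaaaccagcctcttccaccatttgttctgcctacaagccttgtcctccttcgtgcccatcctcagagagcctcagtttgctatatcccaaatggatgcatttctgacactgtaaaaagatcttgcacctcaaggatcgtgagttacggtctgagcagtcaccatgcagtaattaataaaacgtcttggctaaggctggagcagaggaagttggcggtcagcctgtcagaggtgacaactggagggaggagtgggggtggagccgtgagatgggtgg
Ptges3 (chr10:128058732-128059031, plus strand): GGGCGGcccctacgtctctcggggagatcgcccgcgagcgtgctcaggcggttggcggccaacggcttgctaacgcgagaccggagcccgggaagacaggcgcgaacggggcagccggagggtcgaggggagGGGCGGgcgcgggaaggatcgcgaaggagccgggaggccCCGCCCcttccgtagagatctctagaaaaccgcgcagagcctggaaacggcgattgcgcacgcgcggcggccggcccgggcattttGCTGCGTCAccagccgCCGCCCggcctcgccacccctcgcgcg
Ptgr1 (chr4:58987029-58987328, minus strand): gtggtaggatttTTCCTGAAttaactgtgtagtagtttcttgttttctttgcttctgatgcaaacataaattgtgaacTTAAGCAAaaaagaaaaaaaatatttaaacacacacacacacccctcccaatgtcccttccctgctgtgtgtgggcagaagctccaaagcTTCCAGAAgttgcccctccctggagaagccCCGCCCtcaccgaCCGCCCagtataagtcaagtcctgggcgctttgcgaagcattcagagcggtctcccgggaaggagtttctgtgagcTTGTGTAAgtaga
Pla2g4a-201 (chr1:149961241-149961540, minus strand): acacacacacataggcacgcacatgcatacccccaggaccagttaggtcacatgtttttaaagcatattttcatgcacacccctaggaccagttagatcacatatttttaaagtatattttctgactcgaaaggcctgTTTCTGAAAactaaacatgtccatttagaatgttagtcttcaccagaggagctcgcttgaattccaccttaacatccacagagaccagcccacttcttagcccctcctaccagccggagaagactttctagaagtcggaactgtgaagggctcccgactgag
Pla2g4a-202 (chr1:149922390-149922689, minus strand): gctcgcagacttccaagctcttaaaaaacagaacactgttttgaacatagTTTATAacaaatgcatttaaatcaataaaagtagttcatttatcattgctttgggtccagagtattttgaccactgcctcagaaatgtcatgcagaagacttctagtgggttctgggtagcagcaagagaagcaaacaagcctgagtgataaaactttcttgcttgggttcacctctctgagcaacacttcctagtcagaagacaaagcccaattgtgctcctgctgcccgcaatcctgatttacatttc

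The 2 cyclooxygenase genes differed in these letters. The Ptgs2 window held 2 C/EBP matches, from -69 to -62 and from -25 to -18 counted from the start at 1, a GC box, a short cAMP response element from 13 to 18 and an E-box from 17 to 22 that overlaps it. The Ptgs1 window held none of the 6 motifs, which says only that these letters are not in this window. Of 32851 mouse promoters of the same length, 40.7% held the C/EBP match, 35.7% the GC box, 7.51% the short cAMP response element, 7.15% the E-box, 13.6% the TATA box and 12.4% the antioxidant core. Ptges3, with 73.7% G and C against a median of 52.7% over all promoters, held 4 GC boxes and 1 antioxidant core. Ptgr1 held 4 C/EBP matches and 2 GC boxes. The upstream Pla2g4a start held 2 overlapping C/EBP matches and the downstream start a reversed TATA box, far from the start. These matches are descriptions of sequence and were not tested as sites. Their positions follow the annotated starts, and where transcription begins in these cells was not measured.

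Both cyclooxygenase genes and the prostacyclin synthase gene fell with siSirt7, while the co-chaperone gene Ptges3 and the reductase gene Ptgr1 rose. Of the 9 genes, 8 had a mean of at least 1 FPKM and were tested in a fit across 10854 genes (limma on log2(FPKM + 1)), with calls at an adjusted p under 0.05. Among them 2 rose and 3 fell. Across the whole fit 25.2% of genes were called, 12.7% higher and 12.5% lower, with a median log2 fold change of -0.0046 against -0.10 over the 8. Groups did not overlap for 6 of the 8, against 43.9% of all tested genes. The members were chosen with earlier results of these data known, so these shares describe them and test nothing about the set. No change of a member reached 1.5-fold. Hpgd was below 1 FPKM and is not among the 8.

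**Figure D1:**
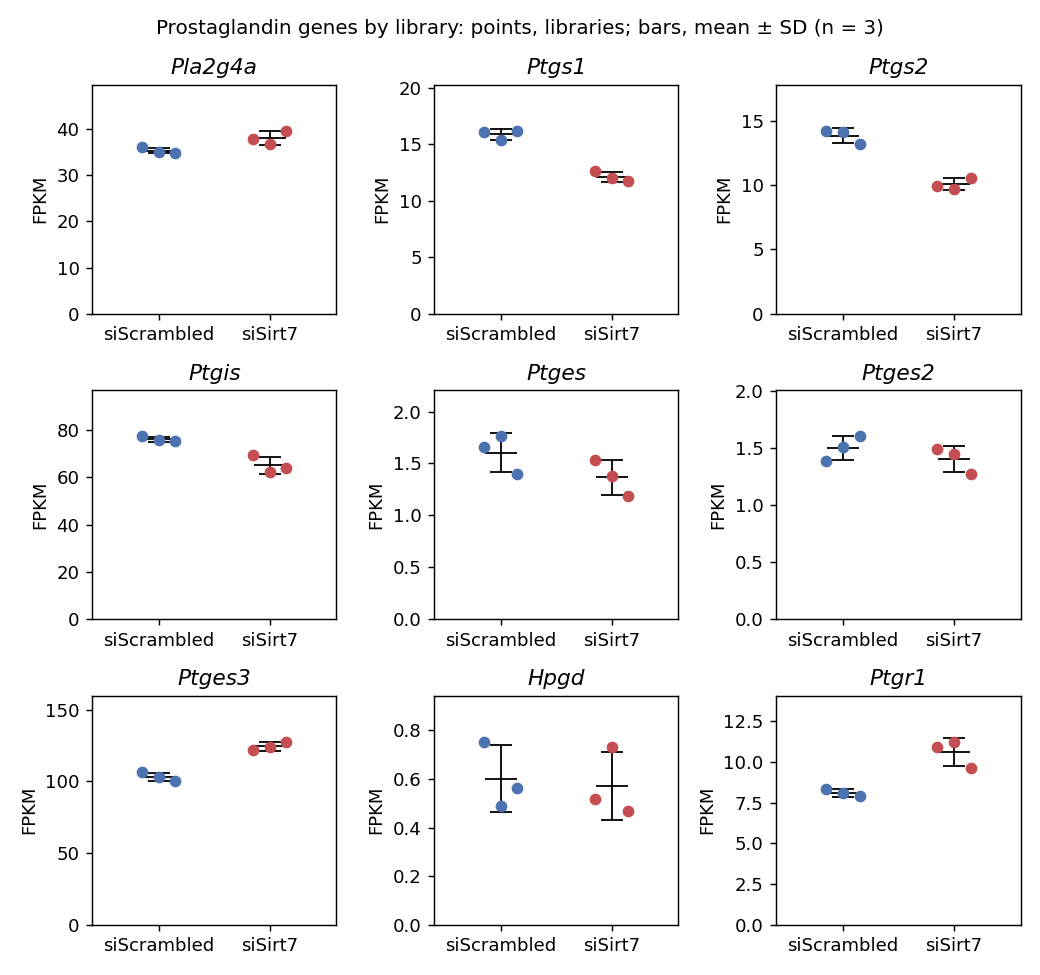
Level in FPKM (vertical axes, linear and starting at 0) of the 9 prostaglandin genes in each library, with siScrambled in blue and siSirt7 in red. Points are libraries and bars the mean ± SD of 3. The siSirt7 points of Ptgs1, Ptgs2 and Ptgis lie below all siScrambled points, and those of Ptges3 and Ptgr1 above them.

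The order of the levels was the same in every library for the 4 highest genes, Ptges3, Ptgis, Pla2g4a and Ptgs1, and for the lowest, Hpgd. Ptgs1 was followed by Ptgs2 and then Ptgr1 in each siScrambled library. In siSirt7 libraries the ranges of Ptgs2 (9.69 to 10.6 FPKM) and Ptgr1 (9.63 to 11.2 FPKM) overlapped, and Ptgr1 was the higher in 2 of 3. Ptges and Ptges2, the next in order, were not separated in either group.

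Pla2g4a encodes the cytosolic phospholipase that releases arachidonic acid, the first step of the pathway. It was at 36.1, 35.1 and 34.9 FPKM in the siScrambled libraries and at 37.9, 36.8 and 39.7 FPKM in the siSirt7 libraries. The groups did not overlap, but the difference was small and was not called (means 35.4 ± 0.63 and 38.1 ± 1.47 FPKM, ± SD, n = 3 each; limma log2 fold change 0.10, SE 0.04, 95% interval 0.0023 to 0.21, adjusted p = 0.124).

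The sum hid a difference between annotated transcripts in 1 library. The longer model, Pla2g4a-201 (ENSMUSG00000056220.14, chromosome 1, 149829618 to 149961290, minus strand, GRCm38), has 18 exons and 748 codons. The other, Pla2g4a-202 (149829636 to 149922439), has 17 exons and 740 codons and starts 38851 bases further downstream, at the second of the start regions printed above. They share 15 exons with equal ends, and 2 exons of Pla2g4a-201 and 1 of Pla2g4a-202 overlap no exon of the other. Pla2g4a-202 was listed at 0 in 5 libraries and at 29.7 FPKM in siSirt7 replicate 3, where it made up 74.8% of the gene's level. In that library Pla2g4a-201 was at 9.98 FPKM, against 34.9 to 37.9 FPKM in the other 5. Tested alone, Pla2g4a-201 had a log2 fold change of -0.53 (SE 0.52, limma adjusted p = 0.624), the opposite sign to the sum. No fold is given for Pla2g4a-202, which was listed at 0 throughout siScrambled. Among 17250 transcripts of genes with more than 1 listed transcript, 15 had this form, 0 in 5 libraries and at least 10 FPKM in the sixth, with 1 to 4 of them in each library. The sources used here do not say how the authors' program divides reads between overlapping transcripts, and its part in this split was not tested.

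**Figure D2:**
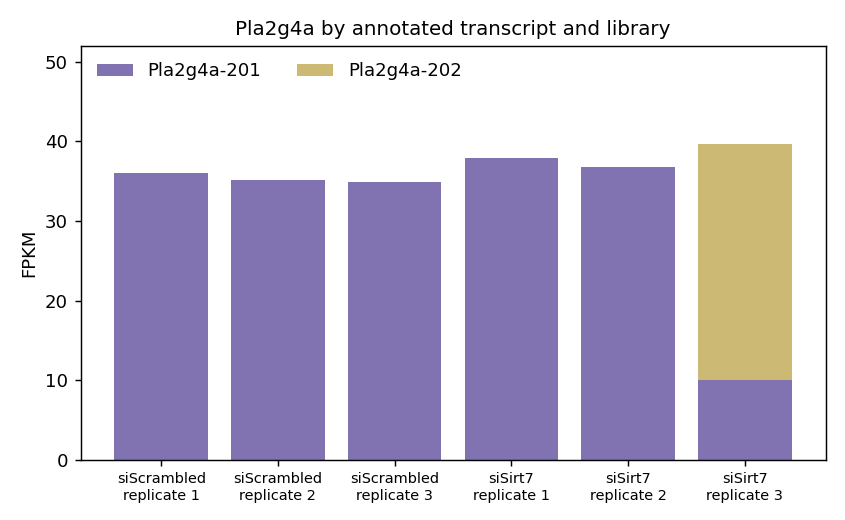
Level in FPKM (vertical axis, linear and starting at 0) of the 2 annotated Pla2g4a transcripts, stacked, in each of the 6 libraries. The sum lies between 34.9 and 39.7 FPKM throughout, and Pla2g4a-202 appears in siSirt7 replicate 3 alone.

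Ptgs1 encodes the cyclooxygenase that most tissues make at a steady level. Its level was 16.1, 15.3 and 16.2 FPKM with siScrambled and 12.6, 12.0 and 11.7 FPKM with siSirt7. Every siSirt7 library was below every siScrambled library (means 15.9 ± 0.46 and 12.1 ± 0.47 FPKM, ± SD, n = 3 each, 1.31-fold lower; limma log2 fold change -0.36, SE 0.05, adjusted p = 0.0049). The gene (ENSMUSG00000047250.13, chromosome 2, 36230426 to 36252272, plus strand) is overlapped by the gene model Gm43621 on the opposite strand, and strand use in counting was not given in the sources used here.

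Ptgs2 encodes the cyclooxygenase that growth factors and cytokines induce. It was at 14.3, 14.1 and 13.2 FPKM with siScrambled and at 9.98, 9.69 and 10.6 FPKM with siSirt7. The groups were again apart, and of the 8 tested genes this was the largest fitted change (means 13.9 ± 0.56 and 10.1 ± 0.46 FPKM, ± SD, n = 3 each, 1.38-fold lower; limma log2 fold change -0.42, SE 0.06, 95% interval -0.57 to -0.28, adjusted p = 0.00434). Ptgs2 was lower than Ptgs1 in each library. The ratio of Ptgs2 to Ptgs1 levels ranged from 0.817 to 0.921 in siScrambled and from 0.790 to 0.904 in siSirt7 libraries, so the ratio overlapped between the groups while both levels did not.

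Ptgs2 (ENSMUSG00000032487.8, chromosome 1, 150100031 to 150108227, plus strand) lies 138740 bases from Pla2g4a with no protein-coding gene wholly between them. The 2 neighbours did not share a call, since the sum of Pla2g4a was not called. The 3′ UTR of Ptgs2 is known for AU-rich elements, sequences with the word ATTTA that shorten or lengthen the life of a messenger RNA through the proteins that bind them. It has 14 such words in 2445 bases, or 5.73 per kilobase. The median was 1.34 over 10323 tested genes with an annotated 3′ UTR of at least 50 bases. Ptgs2 had a higher density than 94.9% of them. Pla2g4a, with 4 words in 443 bases (9.03 per kilobase), had the higher density, and Ptgs1 and Ptgis had none. The 30 bases with the most such words, bases 12 to 41 after the stop codon, hold 4, shown in capitals.
Ptgs2 3′ UTR: ccatATTTATTTATTTAtgtgaagaATTTA

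Ptgis encodes prostacyclin synthase and was the second most abundant of the 9 genes. It was at 77.4, 75.6 and 75.2 FPKM with siScrambled and at 69.3, 62.3 and 63.8 FPKM with siSirt7. The groups did not overlap, and the fall was 1.17-fold (means 76.1 ± 1.18 and 65.1 ± 3.67 FPKM, ± SD, n = 3 each; limma log2 fold change -0.22, SE 0.05, adjusted p = 0.0171). This call rests on narrow margins. The limma adjusted p was 0.0609 and 0.0540 without siScrambled replicates 1 and 2, and 0.0506 and 0.0501 without siSirt7 replicates 2 and 3. The ratio of Ptgis to Ptgs1 levels was 4.64 to 4.93 in siScrambled and 5.20 to 5.49 in siSirt7 libraries, with no overlap, the fall of Ptgs1 being the larger. Ptgis (ENSMUSG00000017969.13, chromosome 2, 167202907 to 167240604, minus strand) has a gene model wider than the listed transcript, and that model overlaps 2 noncoding models on the other strand, Gm14291 and 1110018N20Rik. Both overlaps lie outside the listed transcript.

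The 3 prostaglandin E synthase genes did not move together. Ptges, the microsomal synthase that is induced with Ptgs2 in inflammation, was at 1.65, 1.76 and 1.40 FPKM with siScrambled and at 1.53, 1.38 and 1.19 FPKM with siSirt7 (log2 fold change -0.14, 95% interval -0.40 to 0.12, limma adjusted p = 0.399). Ptges2, a second membrane-associated enzyme, was at 1.39, 1.51 and 1.60 FPKM and at 1.49, 1.45 and 1.27 FPKM (log2 fold change -0.06, 95% interval -0.28 to 0.17, adjusted p = 0.700). Both were low and overlapped between the groups. The sign of Ptges2 flipped to 0.022 after quantile normalization.

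Ptges3 encodes a cytosolic prostaglandin E synthase that is better known as p23, a co-chaperone of the heat shock protein HSP90. It was at 106.3, 103.1 and 100.3 FPKM with siScrambled and at 121.9, 123.9 and 127.8 FPKM with siSirt7. All siSirt7 libraries were above all siScrambled libraries, and the rise was 1.21-fold (means 103.3 ± 3.02 and 124.5 ± 3.00 FPKM, ± SD, n = 3 each; limma log2 fold change 0.27, SE 0.04, adjusted p = 0.00355). Tested alone, the main transcript Ptges3-201 rose from 96.1 ± 2.68 to 118.0 ± 3.37 FPKM (adjusted p = 0.0094). The gene (ENSMUSG00000071072.12) lies at 128058954 to 128077272 on the plus strand of chromosome 10. Ptges3-202, a shorter model, was at 7.11 ± 1.32 and 6.49 ± 1.57 FPKM (log2 fold change -0.12, adjusted p = 0.773). The annotation names 1 pseudogene after Ptges3, and the treatment of reads that fit both was not given in the sources used here.

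Breakdown begins with Hpgd, the dehydrogenase that oxidises and so inactivates prostaglandins. It was at 0.754, 0.488 and 0.564 FPKM with siScrambled and at 0.520, 0.731 and 0.467 FPKM with siSirt7. The groups overlapped throughout, and with no filter on low values the log2 fold change was -0.03 (SE 0.12, 95% interval -0.31 to 0.26, limma adjusted p = 0.891). Ptgr1 encodes the reductase that acts on the oxidised product and also on leukotriene B and reactive aldehydes (ENSMUSG00000028378.6, chromosome 4, 58965439 to 58987119, minus strand). It was at 8.33, 8.08 and 7.88 FPKM with siScrambled and at 10.9, 11.2 and 9.63 FPKM with siSirt7. The groups did not overlap, and the rise was 1.31-fold (means 8.09 ± 0.23 and 10.6 ± 0.86 FPKM, ± SD, n = 3 each; limma log2 fold change 0.35, SE 0.07, adjusted p = 0.0166). The adjusted p was 0.0541 and 0.0567 without siScrambled replicates 2 and 3, 0.0537 and 0.0537 without siSirt7 replicates 1 and 2, and 0.0537 with single transcripts.

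**Figure D3:**
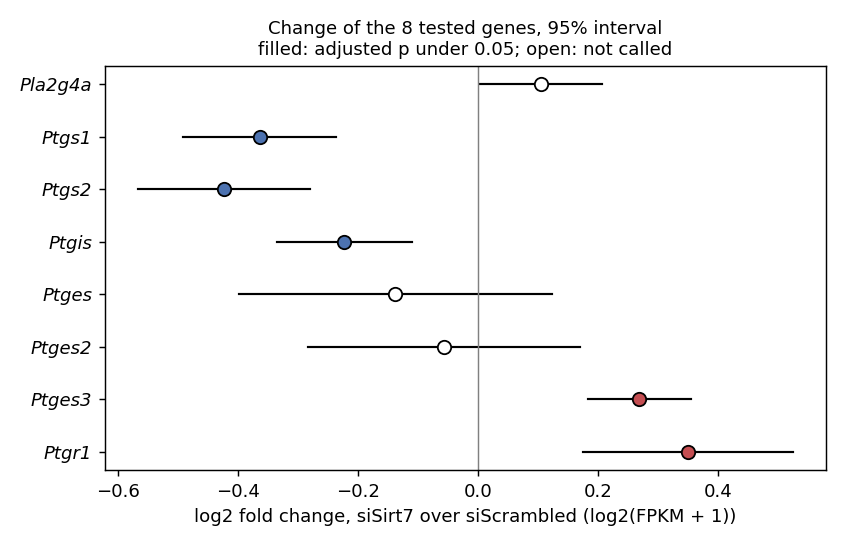
Difference siSirt7 minus siScrambled in log2(FPKM + 1) (horizontal axis) of the 8 tested genes, with 95% intervals from limma. Filled points were called at an adjusted p under 0.05, blue lower and red higher. Ptgs2, Ptgs1 and Ptgis lie below 0, Ptges3 and Ptgr1 above it, and the intervals of Ptges and Ptges2 cover it.

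Over the 6 libraries, the genes whose log2(FPKM + 1) followed Ptgs2 most closely were Hnrnpul2 (Pearson r = 0.999), Osbpl8 (0.999) and Arl4c (0.998), all lower with siSirt7. Those closest to Ptgr1 were Cs (r = 0.997), Wdr81 (0.995) and Dars (0.992), all higher. With 2 groups of 3 that differ, such a likeness shares the difference between the groups, and it is given as a description. A pair of overlapping 3′ UTR words whose holders stood lower than other genes was also searched, in each gene's leading transcript. ATATGTA was in none of the 9 genes, and TATGTAA was present 1 time each in Ptgs2, Ptgr1 and Pla2g4a. Over all tested genes with an annotated 3′ UTR of at least 50 bases, 22.9% held either word. Their median log2 fold change was -0.11 against 0.03 for those with neither. The words were picked with this difference known, so the medians restate that choice and are no support for it. The length and base content of the 3′ UTRs were not taken into account. Ptgs2 fell, Ptgr1 rose and Pla2g4a was not called, and the part of these words in the changes was not tested.

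Beyond the 9 genes, 8 lists of the wider pathway held 109 gene symbols, Zadh2 and Fam213b each being entered under a second symbol as well. Of these, 71 were tested, 9 were called higher and 8 lower. That is 23.9% called, close to the 25.2% of all genes, and the median log2 difference was 0.015. Counts for the single lists below stand beside 12.7% of all tested genes called higher and 12.5% lower. The 8 lower calls became 4 without siScrambled replicate 2, and 5 without siScrambled replicate 1 or 3 or siSirt7 replicate 2.

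Of 5 tested genes that move prostanoids across the membrane, 2 were called higher and 0 lower (median log2 fold change 0.12). The 3 not called, named with their values known, were Slco3a1 (log2 fold change -0.10), Abcc1 (0.12) and Slc22a5 (-0.34, limma adjusted p = 0.0617). Abcc4, a pump that exports prostaglandins and cyclic nucleotides, was at 3.45, 3.41 and 3.45 FPKM with siScrambled and at 8.27, 8.15 and 8.43 FPKM with siSirt7. The groups were far apart, a 2.41-fold rise (log2 fold change 1.07, SE 0.06, limma adjusted p = 0.00022). Slco2a1, the transporter that takes prostaglandins up for breakdown, was at 14.8, 15.1 and 13.7 FPKM and at 21.6, 21.1 and 22.0 FPKM, a 1.48-fold rise with no overlap (log2 fold change 0.54, SE 0.05, adjusted p = 0.00136).

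Of 4 tested genes in the receptor list, 1 was higher and 1 lower (median log2 fold change -0.02). Ptgir, the receptor for prostacyclin, was low, at 0.999, 1.07 and 1.03 FPKM with siScrambled, and at 2.66, 2.54 and 2.69 FPKM with siSirt7. It rose 2.55-fold with no overlap (log2 fold change 0.84, SE 0.08, limma adjusted p = 0.0013), in the same libraries in which Ptgis fell. Ptgfrn, which is not a receptor itself but a membrane protein that lowers ligand binding by the prostaglandin F receptor, fell from 23.9 ± 0.38 to 12.6 ± 0.73 FPKM (± SD, n = 3 each; 1.90-fold, adjusted p = 0.000322). The thromboxane receptor gene Tbxa2r (8.85 ± 0.81 and 7.62 ± 0.20 FPKM, adjusted p = 0.122) and the prostaglandin E receptor gene Ptger4 (2.37 ± 0.09 and 2.73 ± 0.07 FPKM, adjusted p = 0.210) were not called, and are named here with their values already known.

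Other enzymes of prostanoid synthesis and breakdown went both ways. Of 6 tested synthase and reductase genes outside the set, 2 were higher and 0 lower (median log2 fold change 0.21). The aldo-keto reductase gene Akr1b8 went from 28.5 ± 1.83 to 39.3 ± 2.01 FPKM (± SD, n = 3 each; by limma, adjusted p = 0.00439), and the carbonyl reductase gene Cbr3 from 8.49 ± 0.89 to 16.2 ± 2.47 FPKM (adjusted p = 0.00484). Both have close relatives in sequence (Akr1b3 and Akr1b10, and Cbr1), and the division of reads among them was not given in the sources used here, so both values are uncertain. Of 6 further breakdown genes, 0 were higher and 1 lower (median 0.11), the prostaglandin reductase gene Zadh2, at 10.1 ± 0.11 and 7.75 ± 0.85 FPKM (adjusted p = 0.0250). Without siScrambled replicate 1, 2 or 3 or siSirt7 replicate 2 or 3, its adjusted p lay between 0.0545 and 0.0760, and it was 0.0735 with single transcripts and 0.0566 with the replicate block. Of 7 tested genes of the lipoxygenase, leukotriene and epoxide arms, 1 was higher and 0 lower (median -0.03), the microsomal glutathione transferase gene Mgst1, of the same protein family as Ptges, which rose from 23.6 ± 0.75 to 36.7 ± 2.89 FPKM (adjusted p = 0.00177, and 0.0656 with single transcripts).

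Among 12 tested genes that release, activate or return arachidonic acid, 0 were higher and 1 lower (median log2 fold change -0.13). This was Acsl4, which activates arachidonic acid for return to membranes, at 19.1 ± 1.90 and 15.2 ± 0.70 FPKM (± SD, n = 3 each; limma adjusted p = 0.0351). The Acsl4 call was lost, with adjusted p from 0.0583 to 0.101, without siScrambled replicate 1 or 2 or any 1 of siSirt7 replicates 1, 2 and 3. It was also lost with single transcripts (0.132) and with the replicate block (0.0771). Of 10 genes listed as regulators of the cytosolic phospholipase, 2 were higher and 1 lower (median 0.10). S100a10, an annexin partner, rose from 232.6 ± 6.23 to 335.7 ± 15.5 FPKM (adjusted p = 0.00064), and Plaa, an activating protein, rose from 37.4 ± 0.99 to 46.5 ± 2.44 FPKM (adjusted p = 0.00696). The kinase gene Mapkapk2 went from 53.5 ± 0.59 to 48.6 ± 1.04 FPKM (adjusted p = 0.0279), and its adjusted p was between 0.0711 and 0.0895 without siScrambled replicate 1, 2 or 3 or siSirt7 replicate 1 or 2. It was 0.0748 in limma without trend and robust options, 0.0738 with the replicate block and 0.0529 with single transcripts.

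Of 21 genes for factors that act on Ptgs2 transcription or on its messenger RNA, 1 was higher and 4 lower (median log2 fold change -0.02, 23.8% called). Cebpb, the C/EBP factor known to drive Ptgs2, rose from 41.0 ± 1.54 to 61.6 ± 4.29 FPKM (± SD, n = 3 each; by limma, adjusted p = 0.00168), opposite in direction to Ptgs2. Creb1, which binds cAMP response elements, fell from 8.37 ± 0.25 to 6.24 ± 0.12 FPKM (adjusted p = 0.006, and 0.0697 with single transcripts). The related Atf1 (log2 fold change -0.21, adjusted p = 0.0336) and Jun (-0.25, adjusted p = 0.00951) also fell, and were picked once their values were known. Of the genes for proteins that bind AU-rich elements, Zfp36l2, which speeds decay, fell from 57.0 ± 0.49 to 45.7 ± 1.14 FPKM (adjusted p = 0.00183). Elavl1, which stabilises such messenger RNAs (15.1 ± 0.77 and 13.5 ± 0.11 FPKM, adjusted p = 0.0924), and Zfp36, another decay factor (12.6 ± 0.26 and 12.5 ± 0.58 FPKM, adjusted p = 0.855) were not called and were likewise picked once known. Celf2, another listed gene for an RNA-binding protein, was at 18.2 ± 1.11 and 31.9 ± 10.6 FPKM (limma adjusted p = 0.0874). It was not called, nor were the listed Zfp36l1, Hnrnpd, Khsrp, Tia1, Tial1, Celf1 and Rbm3, all named with values known.

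**Figure D4:**
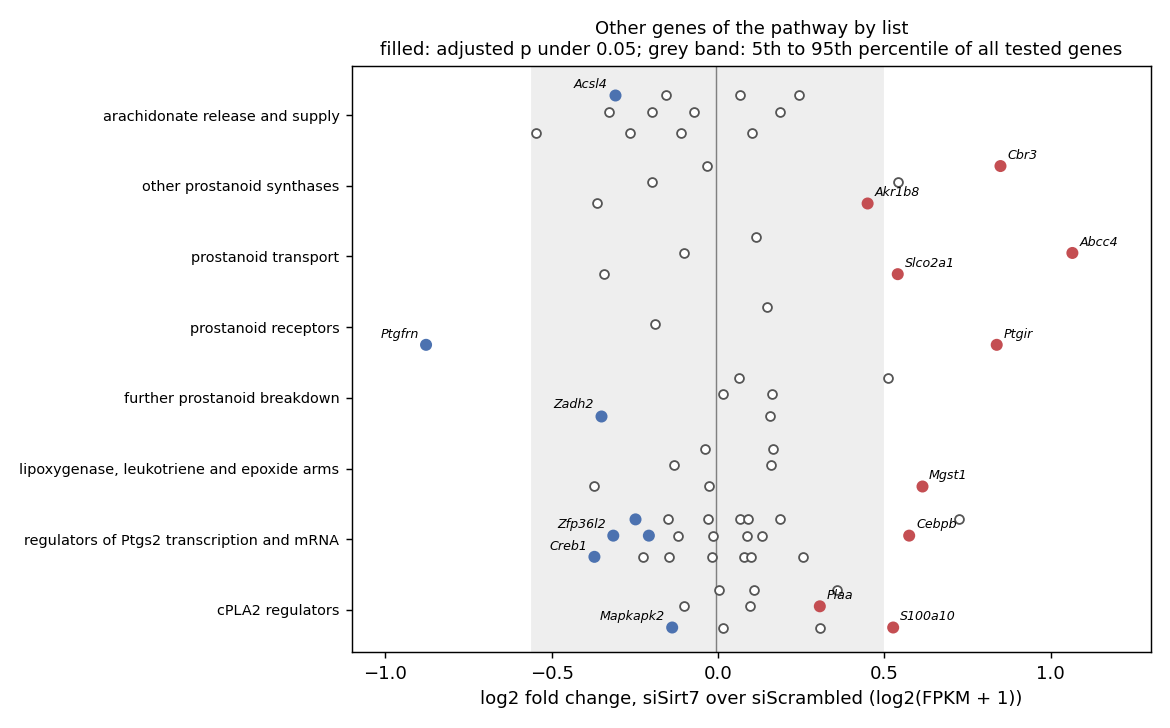
Difference siSirt7 minus siScrambled in log2(FPKM + 1) (horizontal axis) of each tested gene in the 8 lists (vertical axis), with called genes filled, red higher and blue lower, and others open. The grey band holds the 5th to 95th percentile of all tested genes and the line their median. Abcc4, Ptgir, Cbr3, Mgst1, Cebpb, Slco2a1 and S100a10 lie above the band and Ptgfrn below it, beside uncalled genes above the band.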

How the data were processed

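Total RNA was made into mRNA libraries, 3 per group. HISAT2 aligned the reads to GRCm38 (mm10), per the submitters' processing notes. The authors deposited FPKM, 1 value per annotated protein-coding transcript and library (23242 transcripts). The HISAT2 version, the quantification program and the annotation release were not given in the sources used here. Low values showed no steps of whole fragments, so depth is unknown. Each listed transcript has a group mean of at least 0.5 FPKM in 1 group.

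Transcript values were added up per gene. Genes averaging 1 FPKM or more in all 6 libraries together entered the test, on log2(FPKM + 1), which understates changes of low genes, with limma 3.58.1 (trend and robust options; R 4.3.3). P-values were adjusted by Benjamini-Hochberg over all 10854 tested genes, with calls under 0.05. The test was tried on simulated data first. There 20% of genes changed 1.25-fold and 70% of those changed 1.5-fold were recovered, so small changes can go uncalled. The simulation had independent noise and 141 calls, against 2736 in the data, so these shares are a rough guide. The members, lists and tests were chosen with earlier results of these data known. Named genes were the members, Sirt7, up to 3 called genes per list by adjusted p, and the 3 genes most like Ptgs2 and Ptgr1. Cell type markers were named from their lists with values known, and other genes outside the rule are marked where named. Alternatives were 2 other scalings, 2 filters, 2 pseudocounts, plain limma, the replicate block, single transcripts and each library left out. Promoters are from RefSeq, and 3′ UTRs and gene structures from GENCODE vM21 (94.0% of transcripts had the same name and position, all 11 of the members among them). Python 3.11.15, numpy 2.4.6, pandas 2.3.3 and matplotlib 3.10.9 were used.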

Additional observations from a re-analysis of the deposited data

How the results depend on the processing

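Calls of Ptgs1, Ptgs2 and Ptges3 kept their direction and stayed under 0.05 in all 15 alternatives, with adjusted p from 0.0035 to 0.0297 for Ptgs2. Members called higher numbered 2, between 1 and 2 with a library left out, and 1 with single transcripts; those called lower numbered 3, between 2 and 3. Pla2g4a, not called, reversed with single transcripts (-0.53), and Ptges2, not called, after quantile normalization (0.022). Over all genes, 1380 higher and 1356 lower became 714 and 674 with single transcripts, 953 to 1105 and 900 to 1117 with a library left out (900 without siScrambled replicate 2). The lists had 8 genes lower, 4 with single transcripts and 4 to 7 with a library left out. Libraries with the same replicate number shared no visible deviation (correlation of deviations 0.0068, 0.03 and -0.01). Noise of single genes can hide a shared preparation, so this does not settle whether they were paired. With the replicate block no member's call changed, 4 list genes were lower, and 0 member transcripts were called higher and 0 lower. Of the members' transcripts, 1 was called higher and 3 lower. Higher calls were 2 with a mean of at least 5 FPKM, 0 without the trend and robust options and 1 to 2 with a library left out. Lower calls were 0 to 2 with a library left out. The causes of these shifts were not tested, apart from fewer libraries or more tests by construction. With 3 libraries per group and no counts, changes of Ptges, Ptges2 and Hpgd within their intervals are compatible with these data and may have been missed.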
